A study of Mus musculus with 36 samples.

Results

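The comparison is between Lgr5 GL cells, the sorted progeny of Lgr5+ hair follicle stem cells, taken 1 week after a second skin wound (1w pw2) and the same progeny in unwounded skin (0w). It used 6 of the 36 mini-bulk RNA-seq libraries of the study, 3 at 1w pw2 and 3 at 0w, and all genes of the Lgr5 GL count table, 22587 in number, of which 18025 had enough counts to be tested. All mice, the unwounded ones included, carried Lgr5-EGFP-ires-CreERT2 and Rosa26-fl/STOP/fl-tdTomato, and both sexes were used. A single topical dose of 4-hydroxytamoxifen on the tail at 6 to 8 weeks of age switched on tdTomato in cells that drive Cre from the Lgr5 locus, so the label marks these cells and their descendants and not the whole follicle. The 0w cells were collected 1 week after labelling, without a wound. The 1w pw2 cells came from mice with a full-thickness punch wound of the tail at 0w and a second, overlapping wound 8 weeks later, and were collected at week 9, from a zone that held the wound bed together with the distal follicles. No unwounded group of the age of the 1w pw2 mice is among the samples, so the wounds, 9 more weeks of age and 9 more weeks since labelling cannot be told apart. Each library was made from a small, equal number of tdTomato+ epidermal cells, and the labels do not say which mice gave which library, so p-values measure the spread between these libraries.

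Lgr5+ stem cells sit in the bulge and hair germ at the base of the resting hair follicle, fuel hair growth, and can leave the follicle to help close a wound. AP-1 is a family of transcription factors, built from pairs of FOS, JUN and ATF proteins, whose genes are switched on within minutes by growth factors, stress and injury. Basal epidermal cells are fixed to the basement membrane by hemidesmosomes, made of integrins, laminin and collagen XVII, which migrating cells take apart and rebuild.

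The 6 libraries held between 2367230 and 6960537 counts. Gm12415, a long intergenic non-coding RNA (chr4:84741475-84742291), took 29.0, 32.9 and 45.4% of the counts at 0w and 23.1, 16.5 and 27.6% at 1w pw2, so the groups did not overlap in it, and its part in other results was not tested except by removing it. Pearson's r of log2 CPM (counts scaled to library size) across genes, which are not independent replicates, was 0.872 to 0.889 among the 1w pw2 libraries and 0.776 to 0.857 among the 0w libraries. The 0w library called c stood apart from the other 0w libraries. Markers of other cells that the sort could hold were counted too, and the summed levels of melanocyte, immune and fibroblast markers did not overlap between the groups, all lower at 1w pw2. The summed level of the 5 melanocyte markers tested of 8 listed was 70.0 to 90.5 CPM at 0w and 22.0 to 36.6 CPM at 1w pw2, with Tyr, Tyrp1 and Mlana not in the table. Much of this sum at 0w was Mitf, while Dct and Pmel each overlapped between the groups. For immune cells, 7 of 18 markers were in the table and 4 were tested, which summed to 34.9 to 83.4 CPM at 0w against 20.8 to 23.7 CPM. A large part of these sums was Thy1, a surface protein of T cells and fibroblasts, so they do not speak for immune cells alone. The 9 fibroblast markers tested of 10 summed to 442 to 548 CPM against 204 to 358 CPM, with Lum at 0 in all 6 libraries, and Col1a1, the chain of type I collagen, at 16.6, 24.7 and 43.8 CPM against 14.5, 19.2 and 18.8 CPM. The fibroblast sum at 0w was thus of the size of Lgr5 itself, and the part of these cells in the results below was not tested. For 3 vascular and muscle markers the sum was 108 to 255 CPM against 60.6 to 166 CPM, and for 4 Merkel cell markers it was 28.6 to 40.7 CPM against 33.1 to 74.3 CPM, both overlapping. Markers of the lower follicle were present in every library. Krt15, the bulge keratin, lay at 10100 CPM or above in every library, Sox9, a bulge transcription factor, at 1172 CPM or above, and Lgr5 itself at 209 CPM or above. Krt15 and Sox9 were also present in Lrig1 GL cells, the progeny of upper follicle stem cells. On a scale set over both populations they stood there at 3434 to 5834 and 831 to 1957 CPM at 0w. In Lgr5 GL cells the 26 upper follicle and sebaceous genes tested summed to 1000 to 5380 CPM at 0w and 1158 to 4498 CPM at 1w pw2.

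After the second wound several genes of AP-1 and other immediate-early genes stood at higher levels, together with D-type cyclins, and several genes of the basement membrane anchor stood at lower levels. Spread between libraries was wide, and no single gene passed the test. By edgeR's quasi-likelihood test with Benjamini-Hochberg adjustment, 0 of 18025 genes (0%) had an adjusted p under 0.05 with a log2 fold change above 1 in size, and the smallest adjusted p was 0.069, for Jun. At an unadjusted p under 0.05, 656 genes lay higher at 1w pw2 (3.64% of those tested) and 501 lower (2.78%). The 3 libraries of a group lay entirely above those of the other in 1253 genes (6.95%) at 1w pw2 and entirely below in 961 genes (5.33%). These percentages are the background against which the members of each gene group are counted below. The likelihood ratio test, a less strict use of the same model, called 40 genes and DESeq2 called 59. In the quasi-likelihood test 4412 genes, or 24.5%, had a log2 fold change above 1 in size, while the median standard error was 0.76. In bulk samples fewer cells of a type and less RNA per cell cannot be told apart.

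Jun, which encodes the AP-1 subunit c-Jun, had the smallest p of all genes. It stood at 183, 229 and 143 CPM at 0w and at 932, 1042 and 698 CPM at 1w pw2. Every 1w pw2 library was thus at least 3 times the highest unwounded one, with means of 185 ± 43.0 and 891 ± 175 CPM (SD, n = 3 each) and a log2 fold change of 2.27 ± 0.35 (SE; adjusted p = 0.069 by the edgeR quasi-likelihood test). The Jun gene (chr4:95049034-95052222 on GRCm38) overlaps the antisense gene Junos by 689 bases, and the libraries do not keep the strand. Junos had 0, 7 and 3 counts at 0w and 39, 19 and 7 counts at 1w pw2. Leaving out any single library kept the log2 fold change of Jun between 2.11 and 2.45. Jun passed the adjusted test in none of these fits, and without any 1 of the 0w libraries another gene had the smallest p.

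To show where such genes are known to be controlled, the 150 bases before the start of Jun (chr4:95052223-95052372, minus strand), Fos (chr12:85473740-85473889, plus strand) and Atf3 (chr1:191183334-191183483, minus strand) are given from RefSeq on GRCm38.p6, 5′ to 3′ along the gene. Capitals mark matches to the letters of an AP-1 or CRE type motif, TGACNTCA in Jun and TGACGT in Fos and, on the other strand, Atf3.
Jun: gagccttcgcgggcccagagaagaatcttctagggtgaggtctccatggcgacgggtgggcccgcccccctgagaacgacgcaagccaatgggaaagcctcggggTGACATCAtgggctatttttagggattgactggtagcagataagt
Fos: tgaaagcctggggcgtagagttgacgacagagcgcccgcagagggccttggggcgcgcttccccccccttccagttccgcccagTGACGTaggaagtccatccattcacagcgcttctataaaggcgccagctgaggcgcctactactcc
Atf3: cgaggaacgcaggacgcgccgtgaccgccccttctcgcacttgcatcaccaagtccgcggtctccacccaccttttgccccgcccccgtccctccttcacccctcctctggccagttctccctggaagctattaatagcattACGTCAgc
The match in Jun lies 45 bases before the start, that in Fos 66 bases and that in Atf3 8 bases before it. The start is that of RefSeq, which for Atf3 lies inside the longer gene of the GENCODE annotation. In the same 150 bases of Junb, Jund and Fosb none of the motifs searched was found. Over the 250 bases before the start of 27025 promoters, searched on both strands, TGACNTCA was in 7.59%, TGANTCA in 6.87% and TGACGT in 6.56%, and sites of the first and last can overlap. Of the 10 tested AP-1 genes with a promoter entry, 1 held TGACNTCA, 0 held TGANTCA and 2 held TGACGT. Among 26 other immediate-early genes with an entry, 4, 2 and 5 did. A match of letters is a description and does not show a bound site.

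Of 12 AP-1 genes tested, 6 lay higher at an unadjusted p under 0.05 and 0 lower, against a background of 3.64% and 2.78%, and the median log2 fold change of the 12 was 0.81 where that of all genes was 0.00. Without overlap 6 lay higher and 1 lower, against 6.95% and 5.33% of all genes, and 3 had a log2 fold change below 0. This list, like the others, was chosen with earlier results of these data known, so its counts are a description and not an independent test. Fos, the partner of Jun in the classical AP-1 dimer, stood at 56.5, 10.6 and 46.9 CPM at 0w and at 243, 296 and 148 CPM at 1w pw2 (log2 fold change 2.60 ± 0.71, adjusted p = 0.579 by edgeR). Junb, which often acts against c-Jun on proliferation genes, stood at 342, 333 and 276 CPM against 639, 1054 and 563 CPM (1.25 ± 0.45, adjusted p = 0.691 by edgeR). Neither gene overlapped between the groups, and Fos varied more among the unwounded libraries than Junb. Atf3, a stress-induced repressor and activator of the same family, was at 0.227, 0.623 and 0 CPM at 0w, which is 4 counts in all, and at 2.33, 8.66 and 15.4 CPM at 1w pw2. Fosb stood at 3.86, 0 and 5.51 CPM against 24.2, 22.2 and 9.41 CPM. Jund, the subunit found in resting cells, stood at 20.9, 17.6 and 17.6 CPM against 34.4, 49.6 and 29.0 CPM. All 6 of these genes were separated between the groups, and none passed the adjusted test. Fosl1, a FOS relative often raised at wound edges, did not follow them, with 18.6, 6.85 and 37.9 CPM against 3.76, 13.7 and 13.6 CPM (log2 fold change −1.03 ± 0.64, adjusted p = 0.885 by edgeR). The number of AP-1 genes higher at an unadjusted p under 0.05 was 3 to 6 over the alternatives tried, and 3 without replicate 2 of 1w pw2. Without replicate b of 0w, 4 lay higher and 1 lower.

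**Figure D1:**
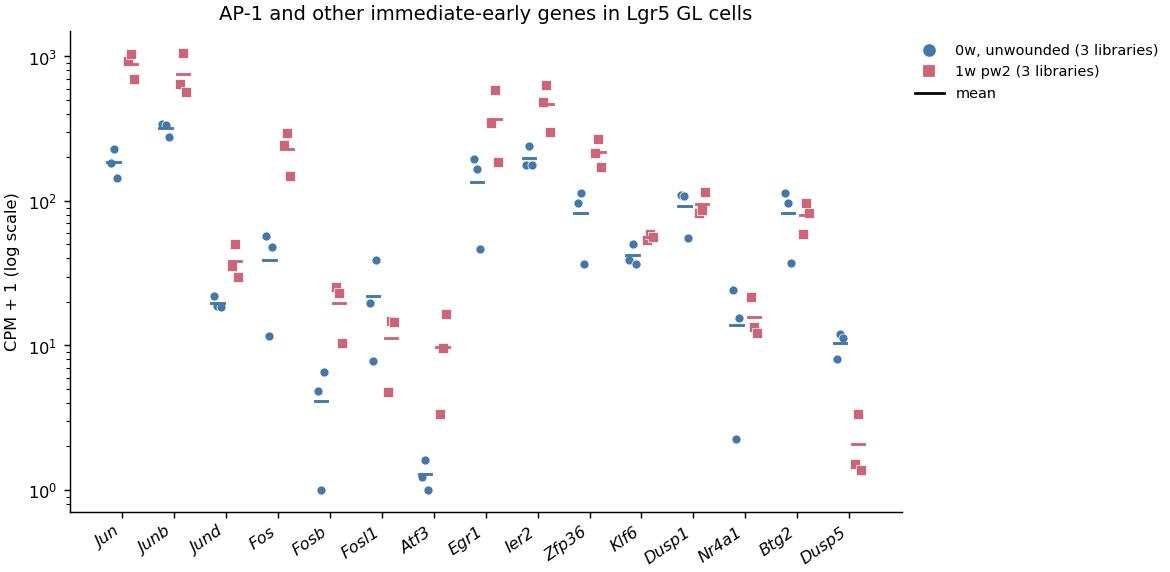
Levels in CPM plus 1 (log scale) of AP-1 and other immediate-early genes in the 3 unwounded (circles) and 3 1w pw2 (squares) libraries, with a bar at each group's mean. Jun runs from 143 to 229 CPM at 0w and from 698 to 1042 CPM at 1w pw2, Nr4a1, Dusp1 and Btg2 overlap, and Dusp5 lies lower at 1w pw2.

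Among 34 other immediate-early genes 6 lay higher and 2 lower at an unadjusted p under 0.05, and 10 lay higher and 3 lower without overlap, with a median log2 fold change of 0.41. The 6 became 3 without 1w pw2 replicate 2. Ier2, a nuclear growth factor response gene, stood at 175, 240.5 and 176 CPM at 0w against 481, 629 and 299.7 CPM at 1w pw2 (1.25 ± 0.36, adjusted p = 0.607 by edgeR). Zfp36, which speeds the decay of cytokine mRNAs, stood at 95.3, 112 and 35.5 CPM against 215, 268 and 169.8 CPM. For Egr1, a zinc finger factor of the serum response, the values were 193, 165 and 45.5 CPM against 343, 581 and 186 CPM. Of these 3 genes only Egr1 overlapped between the groups, where the lowest 1w pw2 library lay below the highest unwounded one. Tnfaip3, a brake on NF-kB, stood at 1.03 to 2.27 CPM against 4.14 to 11.2 CPM, and Klf10, a TGF-beta response factor, at 44.0 to 93.5 CPM against 104 to 198 CPM. Nr4a2, an orphan nuclear receptor, had 1 count at 0w and 32 at 1w pw2, a ratio of 23.7 (95% exact counting interval 3.96 to 964). Dusp5, the nuclear phosphatase of ERK, ran the other way, with 7.03, 11 and 10.3 CPM at 0w and 0.519, 2.33 and 0.377 CPM at 1w pw2 (−3.05 ± 0.86, adjusted p = 0.601 by edgeR). Csrnp1, a nuclear protein induced by axin, did so too, at 3.79 to 19.3 CPM against 0 to 0.908 CPM. Other early genes showed little difference, with log2 fold changes of 0.05 ± 0.39 for the phosphatase Dusp1, 0.20 ± 1.14 for the nuclear receptor Nr4a1 and −0.07 ± 0.56 for the antiproliferative gene Btg2. Heat shock genes, another group that responds to stress, were counted too. Of 26 heat shock and unfolded protein response genes 0 lay higher and 3 lower at an unadjusted p under 0.05. The shares over all genes were 3.64% and 2.78%, so 0 higher of 26 is near the background. With single libraries left out 1 to 3 lay lower, with 1 lower without 0w replicate b. Hspa1a, the inducible HSP70, stood at 79.2, 78.0 and 33.1 CPM against 50.2, 51.1 and 44.4 CPM.

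Over the time course, in which every comparison shares the same 0w libraries, the libraries of Jun, Fos, Junb and Ier2 at 1w pw1, 1 week after the first wound, overlapped with those at 0w. Mean Jun was 214 ± 78.5 CPM at 1w pw1, 388 ± 168 at 2w, 412 ± 62.6 at 4w and 525 ± 118 at 8w after that wound, before 891 ± 175 CPM at 1w pw2. For Fos the means were 51.3 ± 16.6, 113 ± 121, 154 ± 86.0 and 266 ± 125 CPM, and 229 ± 74.8 CPM at 1w pw2. Ier2 was at 208 ± 22.0, 205 ± 143, 269.7 ± 4.54 and 688 ± 18.1 CPM, and 469.7 ± 165 CPM at 1w pw2. Junb was at 418 ± 155 CPM at 1w pw1, 861 ± 139 CPM at 8w and 752 ± 264 CPM at 1w pw2. Between 8w pw1, just before the second wound, and 1w pw2 the libraries overlapped for Fos and Junb. Jun was higher at 1w pw2, with 439 to 659 CPM against 698 to 1042 CPM, and Ier2 was lower, with 667 to 698 CPM against 299.7 to 629 CPM. At 8w pw1 against 0w the same edgeR fit gave adjusted p = 0.463 for Jun and for Ier2.

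**Figure D2:**
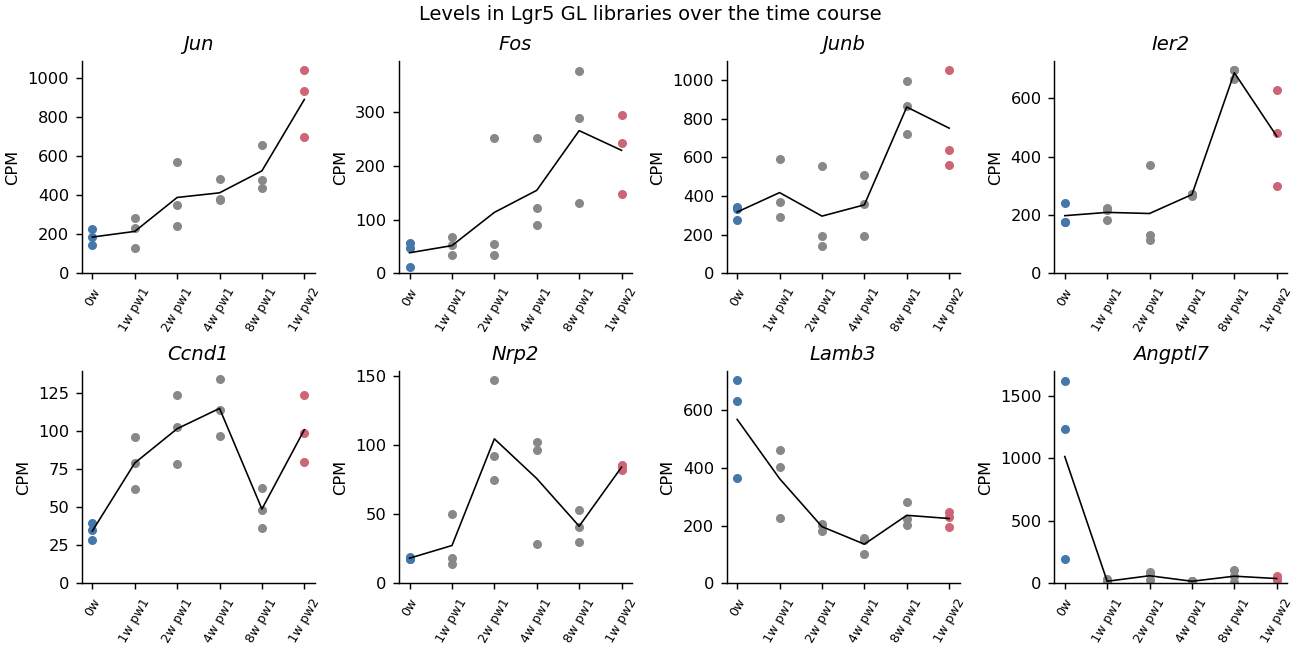
CPM (linear axes) of 8 genes in all 18 Lgr5 GL libraries at the 6 time points, each point a library and the line joining the means. Jun runs from a mean of 185 CPM at 0w to 891 CPM at 1w pw2, Ier2 reaches 688 CPM at 8w pw1, and Angptl7 stays at means of 15.7 to 59.8 CPM at every time point after the first wound.

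Genes of the cell cycle stood mostly higher. Of 38 tested, 5 lay higher and 0 lower at an unadjusted p under 0.05, and the median log2 fold change was 0.51. Ccnd1, cyclin D1, which drives cells from G1 into S phase, stood at 28.1, 35.1 and 39.6 CPM at 0w and at 124, 79.8 and 98.6 CPM at 1w pw2 (1.56 ± 0.31, adjusted p = 0.399 by edgeR). Its locus overlaps LTO1 by 1771 bases, and LTO1 stood at 12.8 to 40.4 CPM against 19.97 to 33.5 CPM. Cyclin D2, Ccnd2, stood at 99.6, 111 and 115 CPM against 413, 175 and 220.2 CPM (1.31 ± 0.40, adjusted p = 0.636 by edgeR). Both cyclins were separated between the groups. Ccnd1 had averaged 115 ± 18.7 CPM at 4w after the first wound (adjusted p = 0.0319 against the same 0w libraries by edgeR). Mitotic genes were mixed. Cenpe, a kinetochore motor, was at 2.41 to 3.11 CPM against 14.0 to 21.8 CPM, Cenpf, another kinetochore protein, at 19.97 to 21.4 CPM against 27.7 to 70.03 CPM, and Aurkb, the mitotic kinase Aurora B, at 6.35 to 17.9 CPM against 17.5 to 43.3 CPM. Mki67, the common proliferation marker, stood at 2.95, 44.2 and 34.8 CPM against 59.4, 61.5 and 118 CPM (1.54 ± 0.77, adjusted p = 0.805 by edgeR). Cdk1, the mitotic kinase, had a log2 fold change of −0.01 ± 0.81, Ccnb1, its cyclin, one of 1.20 ± 0.88 and Top2a, the topoisomerase of chromosome condensation, one of 0.50 ± 0.61, all with overlap. The replication genes Pcna and Mcm2 both had a log2 fold change of −0.07. The count of 5 depended on single libraries, with 3 without replicate a of 0w and 13 without replicate c of 0w.

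Genes that hold basal cells to the basement membrane stood mostly lower. Of 16 basal and hemidesmosome genes 1 lay higher and 4 lower at an unadjusted p under 0.05, with a median log2 fold change of −0.32. Lamb3 (chr1:193207699-193343878), the beta 3 chain of the anchoring laminin 332, stood at 706, 634 and 366 CPM at 0w and at 196, 230.1 and 247 CPM at 1w pw2 (−1.34 ± 0.30, adjusted p = 0.448 by edgeR). It overlaps Hsd11b1 by 42442 bases, a gene with 0 to 2 counts in each 0w library and 0 to 16 counts in each 1w pw2 library. Col17a1, the collagen of hemidesmosomes and a bulge stem cell gene, stood at 3000.0, 3069 and 1272 CPM against 895, 1665 and 1277 CPM. Dst, which ties keratin filaments to hemidesmosomes, stood at 722, 899.8 and 323 CPM against 276, 469 and 305 CPM, and Col7a1, the anchoring fibril collagen, at 125, 279 and 132 CPM against 38.0, 102 and 109.9 CPM. For Col17a1 and Dst the groups overlapped through the low 0w replicate c, and for Lamb3 and Col7a1 they did not. Plec, plectin, which also binds keratin to hemidesmosomes, was the member that lay higher, at 494 to 669.6 CPM against 689 to 938 CPM (0.55 ± 0.24, adjusted p = 0.754 by edgeR). The integrin Itga6 and the basal factor Trp63 were near level, with log2 fold changes of 0.01 and −0.06, whereas the basal keratins were slightly lower, Krt5 by −0.23 ± 0.22 and Krt14 by −0.32 ± 0.28 on the log2 scale. The count of 4 was 2 without 0w replicate b, 2 without 1w pw2 replicate 1 and 6 without 0w replicate c. At 8w pw1 Lamb3 already averaged 236 ± 42.1 CPM, against 225 ± 25.9 CPM at 1w pw2.

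**Figure D3:**
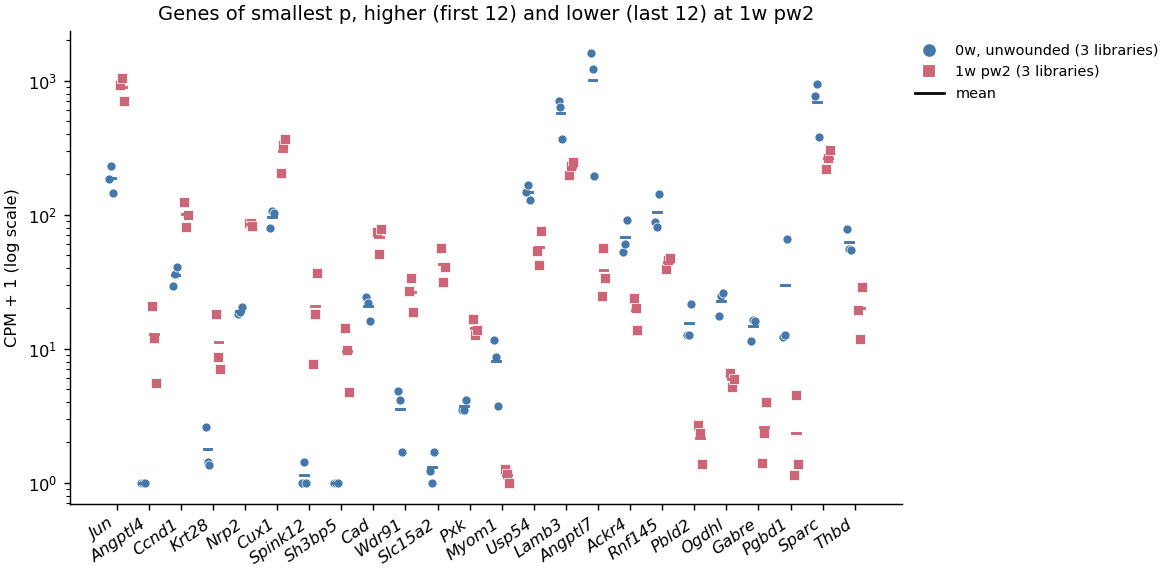
Levels in CPM plus 1 (log scale) of the 12 genes with the smallest p on the higher side and the 12 on the lower side, chosen among separated genes by these same values, so the separation is part of the choice. Circles are the 3 0w libraries, squares the 3 1w pw2 libraries and bars the means, with Nrp2 at 17.2 to 19.3 CPM against 81.7 to 85.6 CPM and Angptl7 at 194 to 1615 CPM against 23.7 to 55.8 CPM.

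The genes with the smallest p were of many kinds, and their values are given as a description because p and separation chose them. Nrp2, neuropilin 2, a receptor for semaphorins and VEGF-C, was the most even, at 17.2, 17.9 and 19.3 CPM at 0w and 85.6, 85.0 and 81.7 CPM at 1w pw2 (2.21 ± 0.50, adjusted p = 0.448 by edgeR). It had averaged 104 ± 37.6 CPM at 2w and 41.3 ± 11.4 CPM at 8w after the first wound. Cux1, a homeobox factor of the inner root sheath, stood at 78.7, 106 and 101 CPM against 202, 330.2 and 366 CPM, and Krt28, an inner root sheath keratin, at 1.59, 0.415 and 0.345 CPM against 16.99, 7.66 and 6.02 CPM. Their means at 4w after the first wound were 363 ± 162 and 63.5 ± 20.6 CPM. Cad, the enzyme that starts pyrimidine synthesis, stood at 15.2 to 23.4 CPM against 49.6 to 76.4 CPM, Wdr91, an endosome regulator, at 0.689 to 3.86 CPM against 17.7 to 32.7 CPM, and Pxk, which acts in receptor trafficking, at 2.49 to 3.10 CPM against 11.7 to 15.6 CPM. Angptl4, a secreted lipase inhibitor with a role in wound repair, had no count at 0w and 153, 66 and 12 counts at 1w pw2, at least 19-fold higher when 3 counts per library are taken as the floor. Sh3bp5, a Rab11 exchange factor, had no count at 0w and 103, 53 and 10 counts, at least 13.7-fold higher, although Capn7 overlaps it by 12107 bases. Slc15a2, a peptide transporter, had 3 counts at 0w and 718 at 1w pw2, a ratio of 177 (95% exact counting interval 60.4 to 861). Spink12, a protease inhibitor, had 2 and 247 counts, a ratio of 91.4 (25 to 759). These intervals cover counting error only, since the libraries carry no molecular identifiers. Some of these genes had passed earlier against the same 0w libraries. The adjusted p by edgeR was 0.0136 for Spink12, 0.0197 for Angptl4 and 0.0272 for Pxk at 1w pw1, and 0.0034 for Krt28 at 4w. Nrp2, Cad, Slc15a2 and Sh3bp5 passed at no earlier time. Wdr91 and Slc15a2 already averaged 23.4 ± 12.2 and 43.5 ± 29.4 CPM at 8w pw1, against 25.5 and 42.0 CPM at 1w pw2.

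The genes on the lower side were also of many kinds. Angptl7, a secreted factor high in bulge stem cells, stood at 1615, 1230.0 and 194 CPM at 0w and at 23.7, 55.8 and 32.8 CPM at 1w pw2 (−4.76 ± 1.07, adjusted p = 0.448 by edgeR). It had been as low at 1w pw1, at 15.7 ± 17.1 CPM, where the adjusted p against the same 0w libraries was 0.0212. It lies inside Mtor on the other strand, and Mtor stood at 14.1 to 59.6 CPM against 37.7 to 62.8 CPM. Sparc, a matrix protein of remodelling tissue, stood at 768, 947 and 376 CPM against 218, 262 and 304 CPM, and Thbd, the clotting regulator thrombomodulin, at 53.4 to 76.9 CPM against 10.8 to 27.9 CPM. Ackr4, a scavenging receptor for chemokines, stood at 51.7 to 90.3 CPM against 12.8 to 22.9 CPM, with Acad11 overlapping it by 42777 bases. Usp54, a ubiquitin protease relative, stood at 145, 165 and 129 CPM against 52.5, 40.8 and 74.9 CPM, and Rnf145, a ubiquitin ligase of sterol control, at 79.9 to 142 CPM against 38.0 to 46.7 CPM. Ogdhl, a relative of the oxoglutarate dehydrogenase subunit, stood at 16.6 to 24.8 CPM against 4.17 to 5.58 CPM, and Gabre, a GABA-A receptor subunit, at 10.4 to 15.4 CPM against 0.389 to 3.01 CPM. Pbld2 stood at 11.6 to 20.7 CPM against 0.377 to 1.69 CPM, and Pgbd1 had a log2 fold change of −4.36 ± 1.21. Myom1, a protein of muscle sarcomeres, had 92 counts at 0w and 3 at 1w pw2, a ratio of 41.4 (13.7 to 205). Against the same 0w libraries Ackr4 and Pbld2 had also passed at 1w pw1 (adjusted p = 0.0136 and 0.0327 by edgeR). Sparc had passed at 4w (0.0282), while Usp54, Rnf145, Thbd and Ogdhl passed at no earlier time. Pbld2 and Ogdhl already averaged 1.23 and 4.74 CPM at 8w pw1, against 1.13 and 4.88 CPM at 1w pw2.

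The identity genes Lgr5, Krt15, Sox9, Lhx2, Nfatc1, Cd34 and Runx1 of the lower follicle all overlapped between the groups. Of 26 bulge and hair germ genes 1 lay higher and 2 lower at an unadjusted p under 0.05, with a median log2 fold change of −0.25, and leaving out single libraries gave 0 to 1 higher and 1 to 3 lower. Without overlap 1 of the 26 lay higher and 3 lower, Angptl7 among the lower, and 19 had a log2 fold change below 0. Lgr5 stood at 499, 494 and 321 CPM at 0w against 311, 424 and 209 CPM at 1w pw2 (−0.48 ± 0.50, adjusted p = 1 by edgeR), and Krt15, Sox9, Lhx2 and Nfatc1 had log2 fold changes of −0.45 ± 0.28, −0.38 ± 0.29, −0.22 and −0.20. Cd34, a bulge surface protein, stood at 242, 168 and 94.1 CPM against 41.8, 109 and 61.0 CPM, and Runx1, a factor of follicle activation, at 37.9, 78.4 and 44.5 CPM against 73.9, 129 and 94.5 CPM, both with overlap. In 31 hair shaft and inner root sheath genes 4 lay higher and 4 lower at an unadjusted p under 0.05, and the median log2 fold change of 0.43 was 0.20 with a gene without counts at 0w taken at its bound. The 4 lower became 1 without 0w replicate a and 2 without 1w pw2 replicate 2. Dlx3, a homeobox factor of the hair matrix, stood at 3.86, 6.43 and 0.689 CPM against 18.1, 14.5 and 21.1 CPM, and the keratin Krt87 at 0 in each 0w library against 8, 19 and 21 counts, at least 3.95-fold higher. The 4 lower members, Krt36, Krt71, Krt84 and the sheath protein Tchh, rested on 1 or 2 unwounded libraries, with Krt71 at 278, 14.3 and 4.83 CPM against 13.0, 4.67 and 7.91 CPM. Of 26 upper follicle and sebaceous genes 0 lay higher and 1 lower, the kallikrein protease Klk10, at 604, 422 and 4.14 CPM against 0.519, 4.33 and 0.753 CPM, where 0w replicate c already overlapped the 1w pw2 libraries. The list rested on single libraries, with 5 lower and a median of −1.02 without 1w pw2 replicate 1, against 0.00 with all, and 3 higher without 0w replicate c.

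Genes of surface epidermis were mixed. Of 29 differentiation genes 1 lay higher and 3 lower at an unadjusted p under 0.05, with a median of −0.25. Lower genes numbered 7 (median −0.52) without 0w replicate c, 6 without 1w pw2 replicate 1 and 1 without 0w replicate b, and without 0w replicate a there was 1 lower and the median was 0.04. Krt1, the keratin of spinous cells, stood at 14.1, 25.3 and 8.96 CPM at 0w against 33.3, 160.1 and 388 CPM at 1w pw2 (3.57 ± 1.31, adjusted p = 0.691 by edgeR), while its partner Krt10 had a log2 fold change of −0.14. Cdsn, the cornified adhesion protein corneodesmosin, stood at 655, 504 and 544 CPM against 125, 22.5 and 144 CPM. The filaggrin relative Flg2 stood at 8.39, 52.3 and 1.72 CPM against 1.04, 0.167 and 0 CPM, and the protease Asprv1 had a log2 fold change of −2.30. Of 23 wound keratins and alarmins 0 lay higher and 0 lower at an unadjusted p under 0.05, and S100a10, a calcium-binding protein named here after its values were seen, was the single member without overlap, at 235 to 313 CPM against 125 to 222 CPM. There were 2 higher without 0w replicate a and 1 lower without 1w pw2 replicate 1. Krt6a, the keratin of activated epidermis, stood at 1627, 1852 and 701 CPM against 887, 1152 and 1155 CPM, Krt16 had a log2 fold change of −1.07 ± 1.00 and Krt17 of 0.03 ± 0.40. Migration genes gave 0 higher and 4 lower of 28. The 4 became 2 without 1w pw2 replicate 3. Itga5, the fibronectin receptor subunit, stood at 37.2, 30.5 and 40.7 CPM against 5.83, 8.83 and 9.41 CPM (−2.17 ± 0.68, adjusted p = 0.658 by edgeR). Tpm1, an actin-binding tropomyosin, stood at 299.8 to 409 CPM against 160.0 to 294 CPM and Vim, vimentin, at 132 to 254 CPM against 60.8 to 90.8 CPM, where the fibroblast and immune markers named above moved in the same direction. Mmp10, a matrix protease, had 41 counts at 0w and 1 at 1w pw2, with overlap at 0.

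**Figure D4:**
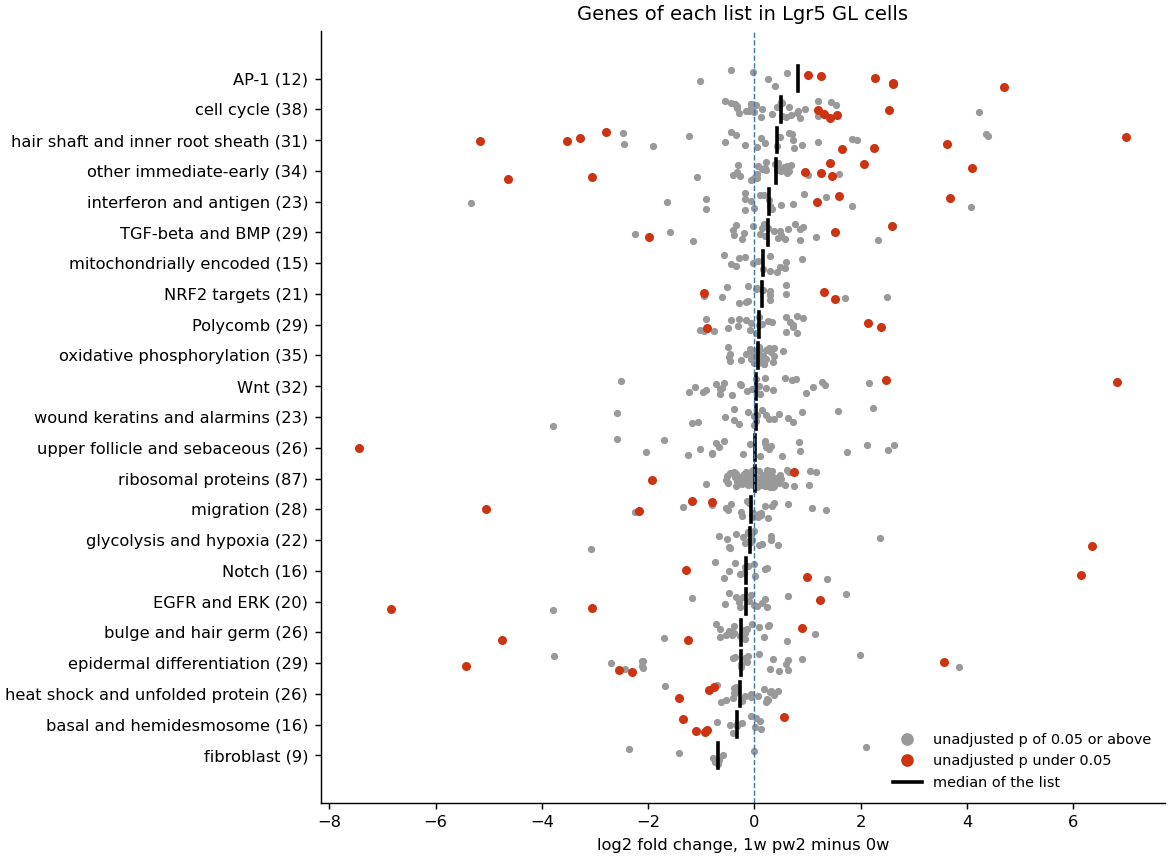
Log2 fold changes (1w pw2 minus 0w) of the tested genes of 23 lists, each point a gene, red at an unadjusted p under 0.05, with a bar at the median. AP-1 genes have the highest median, 0.81, and basal and hemidesmosome genes lie at −0.32. Red points lie on both sides of 0 in some lists, on a single side in others, and are absent from a few. Fitted values of genes without counts in a group depend on the prior count.

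In signalling pathways the libraries did not overlap for 4 Wnt genes higher and 4 lower of 32, for 4 and 3 of 29 TGF-beta and BMP genes, for 2 and 2 of 16 Notch genes and for 2 and 1 of 20 EGFR and ERK genes, against 6.95% and 5.33% of all genes. Fewer had a small p. Of the Wnt genes 2 lay higher and 0 lower at an unadjusted p under 0.05, with Wnt5a, a non-canonical ligand, at 3.18, 4.77 and 8.62 CPM against 15.9, 21.2 and 54.6 CPM and Wnt16, a bulge ligand, at 0 in each 0w library, at least 6-fold higher at 1w pw2, mostly through replicate 1. In TGF-beta and BMP signalling 2 lay higher and 1 lower. Among them Grem1, a BMP antagonist, stood at 141, 153 and 131 CPM at 0w against 11.2, 52.1 and 44.4 CPM at 1w pw2 (−1.98 ± 0.68, adjusted p = 0.668 by edgeR), the ligand Tgfb3 at 0.345 to 6.85 CPM against 19.2 to 27.9 CPM and Pmepa1, a feedback inhibitor, at 7.26 to 21.7 CPM against 29.3 to 69.8 CPM. Of the Notch genes 2 lay higher and 1 lower. Hes1, a Notch target repressor, stood at 99.8, 77.0 and 59.97 CPM against 128, 176 and 165 CPM. Heyl, another target, had 1 count against 154 (ratio 114, 20.2 to 4530), mostly through 1w pw2 replicate 1. The coactivator Maml1 had a log2 fold change of −1.28. Of the EGFR and ERK genes 1 lay higher, the factor Etv4 at 7.26 to 26.1 CPM against 39.3 to 44.1 CPM, and 2 lower, Dusp5 and the ligand Btc, which had 46 counts at 0w and none at 1w pw2, at least 6.9-fold lower with overlap at 0. With single libraries left out the counts higher and lower ran from 2 to 3 and 0 to 2 for Wnt, from 1 to 3 and 1 to 3 for TGF-beta and BMP, stayed at 2 and ran from 0 to 1 for Notch, and ran from 0 to 1 and 1 to 2 for EGFR and ERK genes.

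Interferon and antigen presentation genes gave 3 higher and 0 lower of 23 at an unadjusted p under 0.05. Without 1w pw2 replicate 1 the 3 became 1 and the median turned from 0.27 to −0.20. Psmb8, an immunoproteasome subunit, stood at 10.2, 10.2 and 4.83 CPM against 33.9, 19.2 and 23.0 CPM, the antiviral membrane protein Ifitm3 at 39.7 to 52.0 CPM against 73.8 to 123 CPM, and Mx2, an interferon-induced GTPase, had 1 count against 25. NRF2 targets gave 2 higher and 1 lower of 21. Gpx2, a glutathione peroxidase, stood at 16.1, 16.8 and 55.8 CPM against 91.3, 75.0 and 85.1 CPM and the quinone reductase Nqo1 had a log2 fold change of 1.31, while Nfe2l2, which encodes NRF2, stood at 106, 81.1 and 68.9 CPM against 52.6, 46.3 and 32.8 CPM. In the 29 Polycomb genes 2 lay higher, the PRC1 subunit Pcgf5 (2.13 ± 0.65) and the methyltransferase Ezh2 (2.39 ± 0.88), and 1 lower, its relative Ezh1, at 58.7 to 85.8 CPM against 34.6 to 43.8 CPM. Of 22 glycolysis and hypoxia genes 1 lay higher, the hypoxia target Car9, with 1 count at 0w and 174 at 1w pw2 (ratio 129, 22.8 to 5120), whereas the glucose transporter Slc2a1 and the dehydrogenase Ldha had log2 fold changes of −0.12 and −0.05. With single libraries left out the counts higher and lower ran from 1 to 2 and 0 to 2 for NRF2 targets, from 1 to 4 and 0 to 1 for Polycomb and from 1 to 2 and 0 to 1 for glycolysis and hypoxia genes. The 3 lower members of the heat shock and unfolded protein response list were Pdia6, an ER disulfide isomerase, at 228, 236 and 238 CPM against 121, 168 and 127 CPM, the ER chaperone Dnajb9, at 32.4 to 64.5 CPM against 13.6 to 20.2 CPM, and the small chaperone Hspb8, with a log2 fold change of −0.85. Of 15 mitochondrially encoded and 35 nuclear oxidative phosphorylation genes none lay at an unadjusted p under 0.05, and of 87 ribosomal protein genes 1 lay higher, Rps3, and 1 lower, Rpl39l, with 8 higher without 0w replicate c. Of the markers of other cells 2 were at an unadjusted p under 0.05, both lower, the melanocyte factor Mitf at 37.4, 75.5 and 49.3 CPM against 26.2, 7.66 and 11.7 CPM and the T cell and fibroblast surface protein Thy1 at 29.7, 35.5 and 79.6 CPM against 15.6, 13.0 and 15.4 CPM.

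The change from 0w to 1w pw2 was compared with that of Lrig1 GL cells, the progeny of upper follicle stem cells sampled at the same times, by the interaction of population and time in 1 edgeR fit over both. Of 16153 genes tested, 25 (0.155%) differed at an adjusted p under 0.05, 2 with the more positive and 23 with the more negative change in Lgr5 GL cells. Gja1, which encodes connexin 43 of gap junctions, stood in Lgr5 GL cells at 628, 561 and 944 CPM at 0w and 924, 535 and 641 CPM at 1w pw2, on a scale set over both populations, and in Lrig1 GL cells at 130, 81.8 and 161 CPM and 1110, 1804 and 1335 CPM. The Lgr5 GL libraries overlapped between the times and the Lrig1 GL libraries did not (difference of log2 fold changes −3.53 ± 0.58, adjusted p = 0.00816 by edgeR). For Lamp2, a lysosomal membrane protein, the log2 fold change was −0.76 in Lgr5 GL and 1.73 in Lrig1 GL cells, and for Mapk6, an atypical MAP kinase, it was −0.22 and 2.29. Sox13, a SOX family factor, and Hdac3, a histone deacetylase, were the 2 with the more positive change, 1.05 ± 0.64 and 0.94 ± 0.38 in Lgr5 GL cells against −3.52 ± 0.75 and −1.55 ± 0.39 in Lrig1 GL cells. No gene with the more positive change was called with Gm12415 removed, or without any 1 of the Lgr5 GL 1w pw2 libraries. Gm12415 stood at 150300 to 660300 CPM in the Lgr5 GL libraries compared and at 0 to 1.80 CPM in the Lrig1 GL ones. Its part in these differences was not tested except by removing it. For the early genes the difference was not called. Jun stood at 83.4, 255 and 103 CPM at 0w and 318, 231 and 338 CPM at 1w pw2 in Lrig1 GL cells, and its difference of 1.27 ± 0.59 had adjusted p = 0.365 by edgeR. The differences for Fos (adjusted p = 0.948), Ccnd1 (0.223), Ccnd2 (0.0663) and Lamb3 (0.817) did not pass either.

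**Figure D5:**
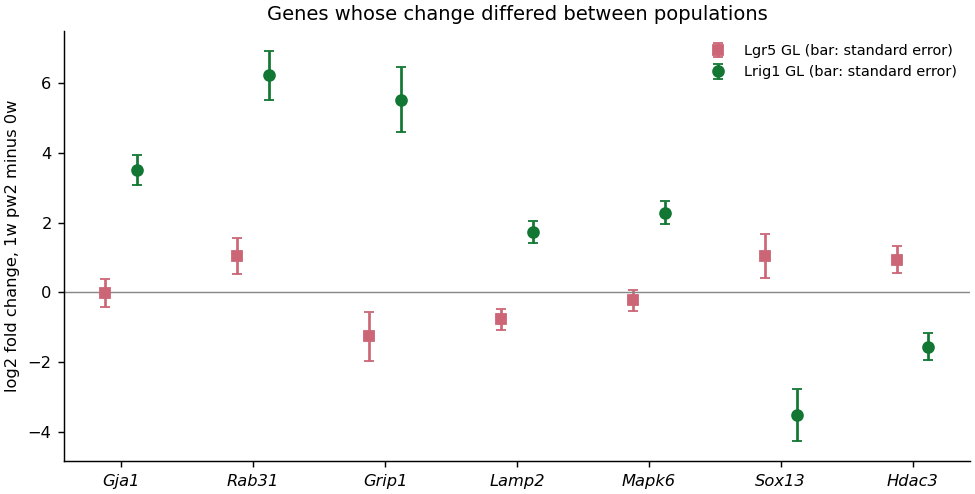
Log2 fold changes (1w pw2 minus 0w) of the 7 named genes whose change differed between populations, squares for Lgr5 GL and circles for Lrig1 GL cells, with bars of 1 standard error. Gja1 lies at −0.02 in Lgr5 GL and 3.51 in Lrig1 GL cells, and Sox13 and Hdac3 lie above 0 in Lgr5 GL and below 0 in Lrig1 GL cells.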

How the data were processed

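Mini-bulk RNA-seq of tdTomato+ cells sorted from tail epidermis was made with a modified Smart-seq2 protocol (oligo-dT primed, full length, not stranded, without molecular identifiers). The authors used Trim Galore 0.5.0 for trimming, HISAT2 2.2.01 for alignment to GRCm38 and featureCounts 1.6.12 for counting exonic reads per gene name of GENCODE release M20. The deposited values are raw counts per gene, 1 table per population, with 2367230 to 6960537 counts in the 6 libraries compared, in which 3 counts correspond to 0.389 to 1.13 CPM. Intervals and floors cover counting error only.

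Positions came from GENCODE release M21, which held 22436 of the 22587 gene names, and promoters from RefSeq. The counts were fitted in R 4.3.3 with edgeR 4.0.16 over all 18 Lgr5 GL libraries at 6 time points, after filterByExpr at a minimum of 10 counts and TMM scaling, with a prior count of 0.125. A gene was called where its log2 fold change exceeded 1 in either direction and its quasi-likelihood p, adjusted by Benjamini-Hochberg, was under 0.05. The difference between populations used all 36 libraries and the adjusted p alone. Genes named were the 12 on each side with the smallest p among separated genes with a mean of at least 10 counts and no clone, Gm or Rik name, leading members of each list and the pair of smallest p in it, and up to 5 called genes per direction for the difference, and Gm12415 for its share of the counts. Other list members at an unadjusted p under 0.05 and overlapping neighbours were chosen after their values were seen. The members and lists were chosen with earlier results of these data known. The 0w columns carry numbers that do not match the labels, so these libraries are called a, b and c. The labels do not tie same-numbered libraries to each other, and the r of their deviations averaged 0.0039 over 32 pairs, so no pairing was used. Alternatives used DESeq2 1.42.0, limma 3.58.1 and sva 3.50.0. The scripts were tested on simulated data.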

Additional observations from a re-analysis of the deposited data

Results flagged for a closer look

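The change from 0w to 1w pw2 differed between Lgr5 GL and Lrig1 GL cells by a test of the difference itself in 25 genes, and the 7 named ones are given here as log2 fold change in Lgr5 GL minus that in Lrig1 GL cells. Gja1, connexin 43, differed by −3.53, Rab31, a Rab GTPase of endosome traffic, by −5.17, and Grip1, a scaffold protein, by −6.78. Lamp2 differed by −2.49 and Mapk6 by −2.51. Rab31 stood at 0, 1.41 and 2.85 CPM at 0w in Lrig1 GL cells and Grip1 at 0.887, 0.705 and 0 CPM, so their fitted values rest on few counts. Sox13 differed by 4.56 and Hdac3 by 2.50, both at an adjusted p of 0.0465 in the same edgeR fit. Neither was called with Gm12415 removed, with 12 libraries only or with the replicate block. The number of genes that differed between populations was 0 without replicate 3 of Lgr5 GL 1w pw2, 1 without replicate 2 of that group, 3 without replicate 2 of Lrig1 GL 1w pw2, 4 without replicate c of Lgr5 GL 0w, and 52 without replicate 3 of Lrig1 GL 0w.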

How the results depend on the processing

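The 0 called genes became 40 with the likelihood ratio test, 59 with DESeq2, 5 with limma-voom with quality weights, 1 with a stricter filter, 6 with 4 surrogate variables, 245 with surrogate variables and the likelihood ratio test, and 1 (Jun) with the GC trend removed, and 0 to 1 when single libraries were left out (1 without 0w replicate a). The 1157 genes at an unadjusted p under 0.05 became 769 with the stricter filter, 1781 with surrogate variables, 2161 with those and the likelihood ratio test, and 994 to 1301 when single libraries were left out. With the replicate block 0 genes were called and 960 had an unadjusted p under 0.05. Of the genes at that p, 56.7% lay higher, against 46.5% (572 of 1230) with the GC trend removed, 45.4% with the 6 libraries alone and 64.9% with surrogate variables, which moved the median of all genes by 0.12. The 25 genes that differed between populations became 252 with the likelihood ratio test, 321 with DESeq2, 15 with Gm12415 removed, 3 with 12 libraries only, 2 with the replicate block, and 0 to 52 when single libraries were left out. DESeq2's size factors and the removal of Gm12415, tried on the separated genes after seeing the data, gave 1170 and 1255 higher and 1065 and 940 lower. Of 3851 recomputed values of named genes 7 turned sign, counting those at least as large as their standard error. These were Krt16 (0.13 with surrogate variables, 0.14 with the likelihood ratio test too) and mt-Cytb (0.0192 and 0.0191), and, when single libraries were left out, Plet1 (−1.38 to 0.40, above 0 without 0w replicate a), Far2 (−0.38 to 3.36) and H2-Ab1 (fitted values of −0.37 to 6.94, on 2 counts at 0w), both below 0 without 1w pw2 replicate 1. Jun passed the test under the likelihood ratio test (adjusted p = 2.64e-05), DESeq2 (5.91e-07), limma-voom (0.0161), the stricter filter (0.0337), surrogate variables (0.0475) and the GC correction (0.0247). By the edgeR quasi-likelihood test it did not pass with the 6 libraries alone (adjusted p = 0.146), the replicate block (0.0938), DESeq2's size factors (0.0579) or Gm12415 removed (0.0565). Nor did it pass by that test without 1w pw2 replicate 1 (0.366), 2 (0.513) or 3 (0.115), or without any 0w library. Causes were not tested. Depth limits genes under 3 counts per library, and 3 libraries per group limit all calls.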

Other observations

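In all, 54 genes, Angptl4, Sh3bp5 and Krt87 among them, had no count in any 0w library and at least 3 counts in each 1w pw2 library, and 3 genes were the reverse. With every library thinned to 1714383 counts outside Gm12415, an alternative chosen after seeing the data, the numbers were 61 and 3. Of the 54, 21 were protein-coding, 13 antisense, 10 of a type to be experimentally checked and 3 long intergenic. Among the protein-coding ones, chosen here after their values were seen, Bcar3, an adaptor of integrin signalling, had 17, 9 and 13 counts at 1w pw2, Gpr183, a chemotactic receptor for oxysterols, had 4, 20 and 12 counts, and Hist1h1a, a linker histone, had 12, 7 and 9 counts.

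The 459 genes that lay higher both at an unadjusted p under 0.05 and without overlap had a median of 29.2 counts per library, and the 293 that lay lower had a median of 129 counts, where that of all genes tested was 58.7. Protein-coding genes made up 75.9% of the first and 86.0% of the second, against 74.7% of all tested. Median GC content was 49.8 and 50.8%, against 50.4%. These are descriptions without a test.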
